A study of Mus musculus with 8 samples.

Results

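The heat shock proteins and chaperonins are the genes that fold, refold and hold other proteins, and their RNA was followed here in the lungs of newborn mice given retinoic acid, dexamethasone or both. Members were all probe sets of the array whose single gene symbol began with Hsp and a number, with Hspa, Hspb, Hspd, Hspe or Hsph and a number, with Dnaja, Dnajb or Dnajc, or with Cct and a number. This rule used no measured value and gave 76 probe sets of 54 genes, of 12422 probe sets in all. Pups were given retinoic acid or oil at day 3 of life, then dexamethasone or saline at day 4, and RNA came from snap-frozen lung. The 4 groups were RA-Dex (retinoic acid, then dexamethasone), Dex (dexamethasone, taken as following oil), RA (retinoic acid, taken as followed by saline) and Dil, a name the labels leave undefined, read here as oil then saline since no other arm remains. Each group had 2 arrays, a and b. Nothing in the labels ties these to separate animals, so p-values here reflect the spread between samples, which may be technical. The sources used here give no strain, dose or interval before collection.

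Chaperones work in families that hand a protein on from one to the next. HSP70 proteins bind exposed hydrophobic stretches in a cycle driven by ATP, J-domain proteins (the DNAJ families) bring them their clients and trigger the cycle, and HSP110 proteins act as the exchange factors that reset it. HSP90 matures signalling proteins, among them the glucocorticoid receptor through which dexamethasone acts. It works with a range of co-chaperones, and Fkbp5 is a co-chaperone found in its complexes. The small heat shock proteins hold unfolded proteins without ATP, HSP60 with its lid HSP10 folds proteins inside mitochondria, and the CCT ring folds actin and tubulin in the cytosol. Many of these genes are induced by heat shock factor 1 when proteins unfold in the cytosol, and another set is induced by the unfolded protein response of the endoplasmic reticulum.

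The signals are on a linear scale and had been brought to a common level on every array, with medians between 317 and 343. Signals under a floor of 85.3 were set to it, and probe sets whose mean log2 signal lay above that of a signal of 200.8 were tested, which kept 60 member probe sets of 47 genes among 7309 probe sets in all. The arrays are bulk measurements, in which fewer cells of a type and less RNA per cell cannot be told apart. Of 12 lung epithelial and endothelial markers, 9 were on the array. Sftpc, the surfactant protein of alveolar type II cells, had signals of 61592 to 84336 over the 8 arrays. Of the 9, 7 overlapped between arrays with and without dexamethasone, among them the endothelial Cdh5 and Pecam1. The other 2, the endothelial Kdr and Tek, had every dexamethasone array below every other. Kdr had 807 to 1369 with dexamethasone and 1605 to 2178 without, and Tek had 832 to 919 and 969 to 1181. Summed signals of the 16 skeletal muscle markers were 6187 and 6270 in RA-Dex, 5994 and 5316 in Dex, 6541 and 5465 in RA, and 9047 and 8903 in Dil, and those of the 10 heart muscle markers were also highest in Dil, at 28535 and 29463 against 19673 to 24186 elsewhere. None of either list was at the floor on all arrays. The muscle sums therefore stood highest in the Dil arrays. Not every muscle gene followed them: Casq1 had 867 and 990 in Dex against 797 and 709 in Dil. Summed squamous markers overlapped between Dil (33205 and 38316) and the other arrays (24081 to 34443). Sprr1b was the largest part of this sum, with 20762 to 32390 over the 8 arrays. Among them Krt4 was higher in Dil (4680 and 2553 against 899 to 1968), as was Krt6a (1885 and 980 against 491 to 813). Krt13, too dim for the tests, was also higher there (1092 and 350 against 13.2 to 292). No other squamous marker had both Dil arrays above all the rest, for instance Krt1 (222 and 259 against 30.1 to 415). The part of muscle, squamous and endothelial transcripts in the results below was not tested.

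Across the families few members changed. In the comparison of the 4 arrays with dexamethasone (RA-Dex and Dex) with the 4 without it (RA and Dil), 3 of 60 member probe sets passed an adjusted p of 0.05 in limma's moderated test, all of them upward, beside 7.83% of all probe sets tested in either direction and 4.26% upward. They were Hspb8, Hsph1 and Dnajb9, from 3 different families. The share of members called, 5% in either direction and also 5% upward, was near that of the array as a whole. The median log2 fold change of the members was -0.04, against -0.03 over all probe sets tested, and the median size of the change was 0.19 in both. Log2 fold changes beyond 0.5 in either direction were seen in 10% of the members and in 13.8% of all probe sets.

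**Figure D1:**
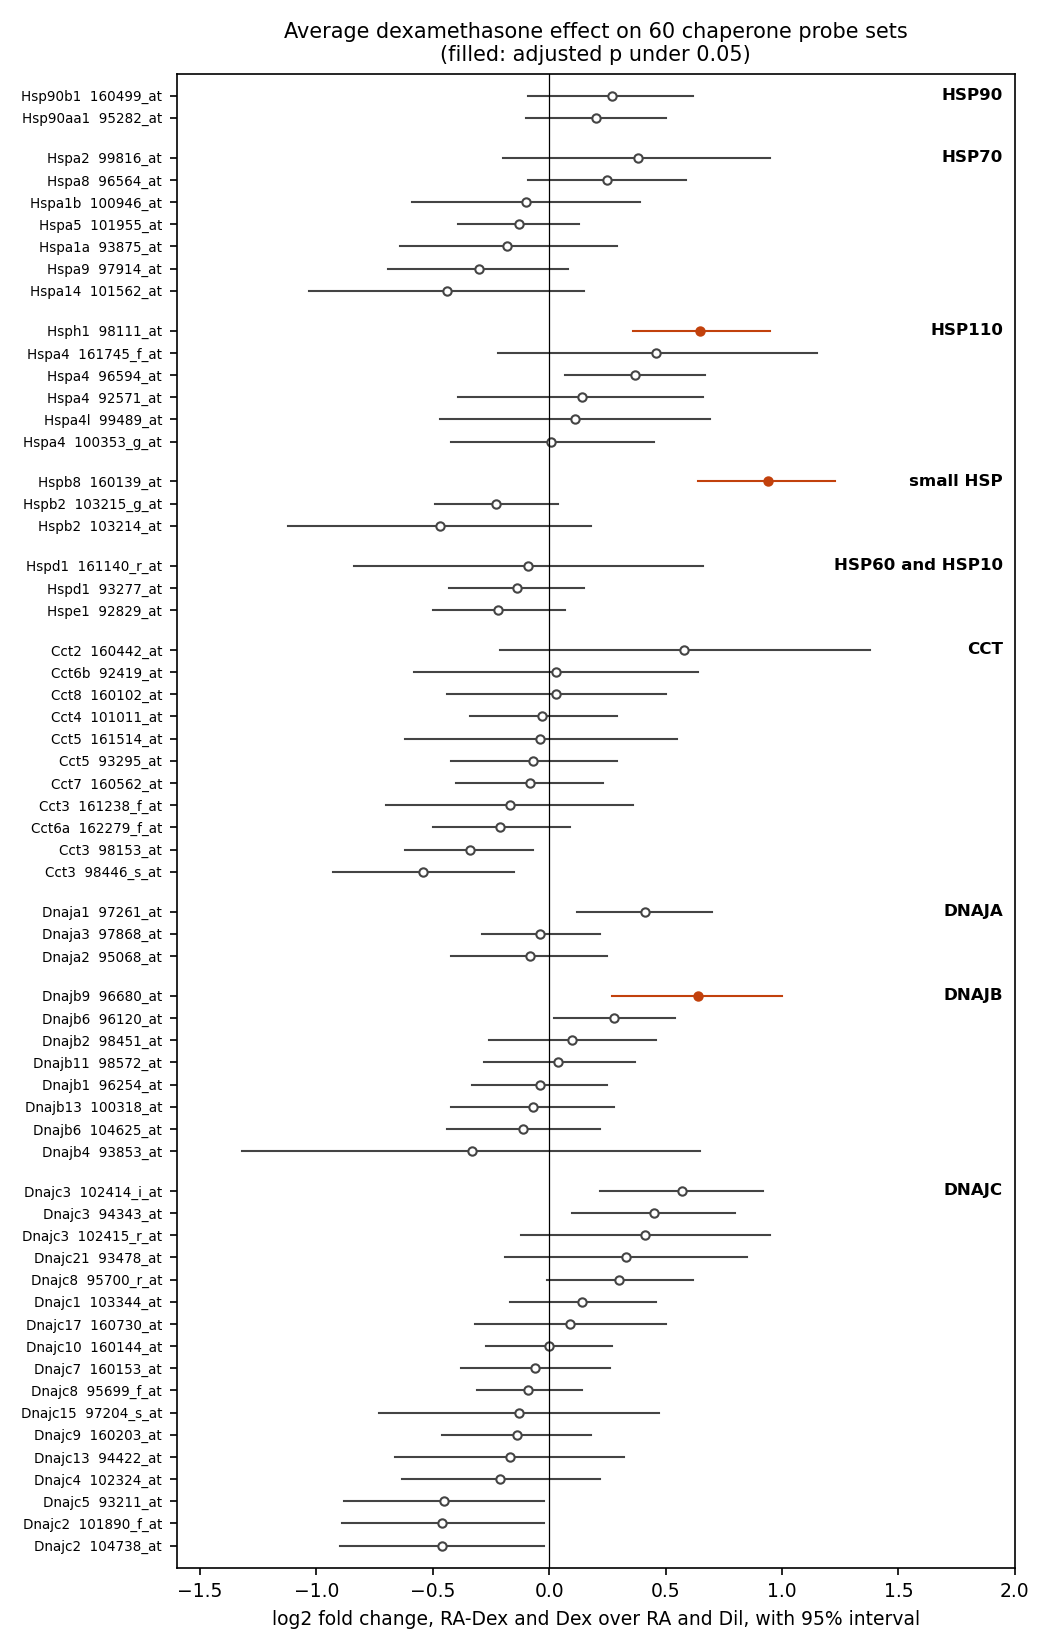
Log2 fold change (x axis, log2 scale) of the 60 tested chaperone probe sets, grouped by family down the page, for the RA-Dex and Dex arrays over the RA and Dil arrays (4 against 4). Points are the fitted values, bars their 95% intervals, and filled points passed an adjusted p of 0.05. Hspb8, Hsph1 and Dnajb9 are filled, and most other intervals cross 0.

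Hspb8 gave the clearest change of all members. It encodes a small heat shock protein that works with Bag3 to send damaged proteins to autophagy and is known from heart and skeletal muscle. Its signals were 2000 and 1999 in RA-Dex, 1924 and 1698 in Dex, 884 and 1135 in RA, and 919 and 1059 in Dil. All 4 dexamethasone arrays were above all 4 others, by a wide gap, and the arms with and without retinoic acid looked much the same. With dexamethasone it rose 1.91-fold, a log2 fold change of 0.94 ± 0.132 (SE; adjusted p = 0.00136 by limma for 4 arrays against 4), and this call held under the 17 alternatives run, with values of 0.84 to 1.03. A second Hspb8 probe set was at the floor on 6 of 8 arrays and was not tested. The 150 bases before the start of Hspb8 are shown because this is the member that moved most. They lie at chr5:116422865-116423014 on the minus strand of GRCm38.p6 (RefSeq), and no motif searched for here was found in them.
Hspb8: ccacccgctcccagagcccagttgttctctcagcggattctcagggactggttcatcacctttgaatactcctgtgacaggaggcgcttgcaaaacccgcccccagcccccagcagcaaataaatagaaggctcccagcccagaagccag

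Hsph1, the HSP110 protein that resets HSP70 by exchanging its nucleotide, was the next. Its signals were 1321 and 1541 in RA-Dex, 1532 and 1243 in Dex, 941 and 997 in RA, and 875 and 771 in Dil. The 2 sets of 4 arrays did not overlap, and Dil was the lowest group. Hsph1 rose 1.57-fold, a log2 fold change of 0.65 ± 0.134 (SE; adjusted p = 0.0125). It no longer passed without the RA-Dex array b (adjusted p = 0.0671), without the Dex array a (0.0662) or with dim probe sets kept (0.051). The bases before its most upstream start, at chr5:149636337-149636486 on the minus strand of GRCm38.p6 (RefSeq), are shown because they hold a pair of the units that heat shock factor binds, TTCNNGAA, given in capitals.
Hsph1: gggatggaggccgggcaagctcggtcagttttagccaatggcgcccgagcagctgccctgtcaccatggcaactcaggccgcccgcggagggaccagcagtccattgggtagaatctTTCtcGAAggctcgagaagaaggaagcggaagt
A run of 3 such units lies 37 to 49 bases past that start, at chr5:149636288-149636300, and reads TTCtgGAAagTTC.

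The other HSP110 genes had less even values. Hspa4 has 4 tested probe sets that differ in value. The brightest had signals of 2012 and 2474 in RA-Dex, 2770 and 2133 in Dex, 2364 and 1976 in RA, and 1458 and 1547 in Dil. Only the Dil arrays stood apart, below the other 6. Its log2 fold change with dexamethasone was 0.37 ± 0.134 (adjusted p = 0.133), that of Dex over Dil was 0.69 ± 0.189 (adjusted p = 0.0835), and that of RA over Dil was 0.52 ± 0.189 (adjusted p = 0.506). The other 3 sets of Hspa4 had values of 0.01 to 0.46 with dexamethasone, and Hspa4l had 0.11 ± 0.264, with none past the threshold.

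Dnajb9 was the one J-domain gene called. Its product is a co-chaperone of the endoplasmic reticulum that holds the stress sensor Ire1 in check and helps to remove misfolded proteins. Its signals were 700 and 906 in RA-Dex, 768 and 903 in Dex, 597 and 608 in RA, and 528 and 392 in Dil. The arrays with dexamethasone were all above those without, but the gap between Dex-treated and RA arrays was narrow. A second Dnajb9 probe set, too dim for the tests, did not show this split. Its signals were 153 and 79.3 in RA-Dex, 103 and 96.2 in Dex, 177 and 133 in RA, and 89.5 and 90.8 in Dil. The tested set rose 1.55-fold, a log2 fold change of 0.64 ± 0.165 (SE; adjusted p = 0.0399). The call was lost when any of 7 of the 8 arrays was left out (adjusted p up to 0.172, without RA-Dex replicate b; it was 0.031 without Dil replicate a), with dim probe sets kept (0.129) and without an intensity trend (0.0606).

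Dnajc3, which joins Dnajb9 in the endoplasmic reticulum and also restrains the kinase Perk, has 3 tested probe sets. On the first the signals were 794 and 717 in RA-Dex, 658 and 848 in Dex, 538 and 440 in RA, and 511 and 543 in Dil. On the second they were 1806 and 2475 in RA-Dex, 1902 and 1844 in Dex, 1451 and 1582 in RA, and 1710 and 1139 in Dil. On both, every dexamethasone array was above every other array. Their log2 fold changes were 0.57 ± 0.158 (adjusted p = 0.0533) and 0.45 ± 0.158 (adjusted p = 0.12), just short of the threshold for the first, which passed under quantile normalization (0.0352), cyclic loess normalization (0.0305) and the stricter filter (0.0395). The third had 0.41 ± 0.242 with overlapping groups.

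The main chaperones of the endoplasmic reticulum did not pass. Hspa5 (BiP), the HSP70 of this compartment and the textbook marker of the unfolded protein response, had signals of 3407 and 4332 in RA-Dex, 3563 and 3346 in Dex, 4255 and 4404 in RA, and 4076 and 3326 in Dil. The groups overlapped, and the log2 fold change with dexamethasone was -0.13 (95% interval -0.39 to 0.13). Hsp90b1 (Grp94), the HSP90 of the same compartment, had signals of 5212 and 7132 in RA-Dex, 6861 and 5588 in Dex, 3855 and 6166 in RA, and 5662 and 5075 in Dil, where only RA replicate a lay low, and a log2 fold change of 0.27 (-0.09 to 0.62). The values were for Dnajb11 0.04 (-0.28 to 0.37), Dnajc10 0 (-0.27 to 0.27) and Dnajc1 0.14 (-0.17 to 0.46). The intervals of Hspa5, Dnajb11, Dnajc10 and Dnajc1 lie below the 0.64 fitted for Dnajb9, whereas that of Hsp90b1 nearly reaches it. The value of Dnajb9 has a 95% interval of its own, 0.27 to 1, which overlaps those of Dnajb11, Dnajc1 and Hsp90b1. The difference between these genes was not tested. The upstream bases of Dnajb9, Dnajc3 and Hspa5 are set side by side because these 3 genes belong to the same response but were not called alike. They lie at chr12:44210069-44210218 (minus strand), chr14:118937782-118937931 (plus strand) and chr2:34771940-34772089 (plus strand) of GRCm38.p6 (RefSeq), and capitals mark the endoplasmic reticulum stress element, CCAAT and CCACG with 9 bases between them.
Dnajb9: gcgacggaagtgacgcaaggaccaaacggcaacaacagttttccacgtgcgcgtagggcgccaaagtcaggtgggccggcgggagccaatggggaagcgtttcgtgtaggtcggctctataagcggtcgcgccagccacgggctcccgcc
Dnajc3: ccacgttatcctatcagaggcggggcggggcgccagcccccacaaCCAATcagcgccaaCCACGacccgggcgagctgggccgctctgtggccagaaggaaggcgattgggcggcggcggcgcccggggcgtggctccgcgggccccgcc
Hspa5: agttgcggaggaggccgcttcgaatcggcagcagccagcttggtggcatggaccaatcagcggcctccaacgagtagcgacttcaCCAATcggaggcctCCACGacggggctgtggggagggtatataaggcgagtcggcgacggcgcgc
Dnajc3 and Hspa5 each hold 1 complete element there, while the window of Dnajb9 holds none in these letters. Hsp90b1, whose bases are not shown, also holds the element, and its value was 0.27 (-0.09 to 0.62). Any link between the element and these values was not tested.

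**Figure D2:**
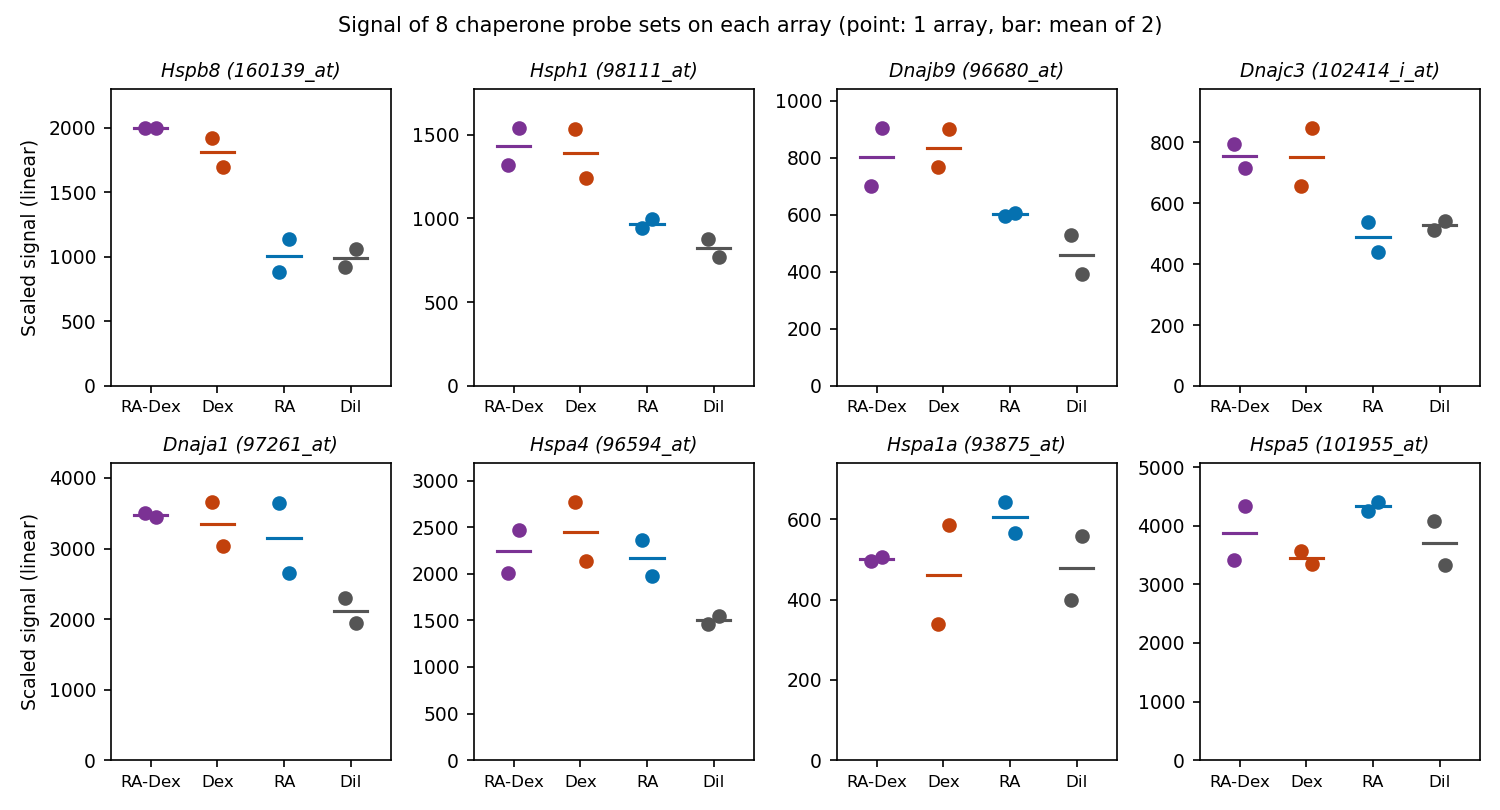
Scaled signal (y axis, linear scale from 0) of 8 chaperone probe sets on each of the 8 arrays, with RA-Dex, Dex, RA and Dil from left to right. Points are arrays and bars are means of 2. Hspb8 shows the widest gap between arrays with and without dexamethasone, Dnaja1 and Hspa4 are lowest in Dil, and Hspa1a and Hspa5 show overlapping groups.

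In the cytosol, the stress-inducible HSP70 genes did not pass. Hspa1a had signals of 496 and 507 in RA-Dex, 338 and 586 in Dex, 643 and 566 in RA, and 399 and 559 in Dil, and Hspa1b had 320 and 298 in RA-Dex, 301 and 229 in Dex, 413 and 331 in RA, and 242 and 264 in Dil. Both were highest in RA by their group means, and the groups overlapped in the comparison of dexamethasone. Their log2 fold changes with dexamethasone were -0.18 (95% interval -0.64 to 0.29) and -0.10 (-0.59 to 0.39). These genes are near-identical copies, and their probe sets may share RNA. Hspa8, the constitutive HSP70, had signals of 5919 and 6607 in RA-Dex, 5913 and 7023 in Dex, 4735 and 6258 in RA, and 6569 and 4173 in Dil, with a log2 fold change of 0.25 (-0.09 to 0.59). Hspa9, the mitochondrial HSP70, had 1056 and 1339 in RA-Dex, 1644 and 988 in Dex, 1660 and 1455 in RA, and 1617 and 1365 in Dil, with -0.30 (-0.69 to 0.08). Both had overlapping groups, and Hspa14, which works at the ribosome, had -0.44 (-1.03 to 0.15). Hspa2, best known from the testis, was uneven between arms: its signals were 298 and 334 in RA-Dex, 270 and 245 in Dex, 124 and 206 in RA, and 306 and 297 in Dil. RA alone was low. The log2 fold change was 0.98 ± 0.369 for RA-Dex over RA (adjusted p = 0.214) and -0.92 ± 0.369 for RA over Dil (adjusted p = 0.566), and the interaction was 1.21 ± 0.523 (adjusted p = 0.88), so none passed.

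Hsp90aa1, the inducible cytosolic HSP90, had signals of 5978 and 7269 in RA-Dex, 6716 and 5299 in Dex, 6971 and 4900 in RA, and 5020 and 5243 in Dil, with a log2 fold change of 0.20 (95% interval -0.10 to 0.50). The arrays with and without dexamethasone overlapped. Hsp90ab1 was not analysed here. The HSP90 co-chaperone Fkbp5, which lies outside the families and is a known target of the glucocorticoid receptor, had signals of 6732 and 6463 in RA-Dex, 6440 and 5917 in Dex, 900 and 1134 in RA, and 1422 and 1519 in Dil, so every array labelled with dexamethasone was above every other. Its log2 fold change was 2.39 ± 0.114 (adjusted p = 8.84e-07), far beyond that of any member.

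Of 17 tested genes in a list of HSP90 and HSP70 co-chaperones, 1 rose, 1 fell and 15 did not pass with dexamethasone, with a median of -0.10. The rise was Fkbp5. The fall was Stub1 (CHIP), the ubiquitin ligase that sends clients of HSP70 and HSP90 to the proteasome. Its signals were 2076 and 2028 in RA-Dex, 2030 and 1773 in Dex, 2819 and 2652 in RA, and 2582 and 2565 in Dil. The groups of 4 did not overlap, and Stub1 fell by 0.43 on the log2 scale (log2 fold change -0.43 ± 0.107, adjusted p = 0.0346), a call that was lost when any of 7 of the 8 arrays was left out (adjusted p up to 0.153, without Dex replicate b; it was 0.0475 without RA replicate b) and with no intensity trend (0.0866), and its size was under a minimum log2 fold change of 0.5. Bag3, the partner of Hspb8, had signals of 1224 and 1165 in RA-Dex, 998 and 1009 in Dex, 898 and 948 in RA, and 1199 and 1208 in Dil, and so did not follow Hspb8.

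Of 18 tested genes of the endoplasmic reticulum list, 1 rose, 0 fell and 17 did not pass, with a median of -0.06. The rise was Herpud1, a membrane protein of the unfolded protein response that serves the removal of misfolded proteins from the endoplasmic reticulum. Its signals were 2920 and 3378 in RA-Dex, 2700 and 2885 in Dex, 1541 and 1603 in RA, and 1352 and 1383 in Dil. Herpud1 rose with dexamethasone (log2 fold change 1.01 ± 0.11, adjusted p = 0.000216), and did so in each arm, with 1.03 ± 0.155 for Dex over Dil (adjusted p = 0.00452) and 1 ± 0.155 for RA-Dex over RA (adjusted p = 0.00482). Ddit3 (Chop), the death-promoting factor of the same response, had -0.14 ± 0.178, and Xbp1, a transcription factor of that response, had -0.13 ± 0.122, with neither past the threshold.

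The heat shock factors gave little to measure. Hsf2 was under the floor on every array, with signals of 22.4 to 48.2, and Hsf1 was not analysed here. Of 8 tested genes in the list of heat shock factors and their other targets, 0 passed with dexamethasone (median -0.03), and the same held for 9 chaperonin partner genes (median -0.06) and 10 genes of mitochondrial import and folding (median -0.12). Over all probe sets, limma gave 1557 (21.3%) an unadjusted p under 0.05 in this comparison. Of the 60 members, 13 were among them, a share near that of the array as a whole.

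Immediate early genes were split. The summed signal of 10 such markers was 21893 and 19975 in RA-Dex, 19795 and 20706 in Dex, 14201 and 13437 in RA, and 12863 and 10881 in Dil, and none was at the floor on all arrays. The 2 sets of 4 arrays did not overlap in this sum, of which Dusp1 was the largest part (8552 to 10329 with dexamethasone, 3779 to 4660 without). Of the 10 genes, 5 (Dusp1, Fos, Jun, Zfp36 and Atf3) had all arrays with dexamethasone above all others, and 1, Egr1, had them all below (248 to 338 with dexamethasone, 468 to 944 without). The other 4, Fosb, Junb, Ier2 and Nr4a1, overlapped. Their part in the results for Hspb8, Hsph1 and Dnajb9 was not tested.

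The HSP60 and HSP10 pair and the CCT ring showed no member past the threshold. Hspd1 (HSP60) had signals of 4689 and 5849 in RA-Dex, 4000 and 4967 in Dex, 5527 and 4909 in RA, and 6248 and 4718 in Dil on its brighter set, with a log2 fold change of -0.14 (95% interval -0.43 to 0.15), and its dimmer set had -0.09 (-0.84 to 0.66). Hspe1 (HSP10), its lid, had 1359 and 1287 in RA-Dex, 1561 and 1417 in Dex, 1778 and 1852 in RA, and 1684 and 1273 in Dil. Its log2 fold change was -0.22 (-0.50 to 0.07) on average and -0.46 ± 0.182 for RA-Dex over RA (adjusted p = 0.244), where the groups did not overlap. The genes stand head to head on chromosome 1, and the part next to Hspe1 of the bases between them, at chr1:55087998-55088147 on the plus strand of GRCm38.p6 (RefSeq), is shown because it carries 4 heat shock units in a row, in capitals.
Hspe1: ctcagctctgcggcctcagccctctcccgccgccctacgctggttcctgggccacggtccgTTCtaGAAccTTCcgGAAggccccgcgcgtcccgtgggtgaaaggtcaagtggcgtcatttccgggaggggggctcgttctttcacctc

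Among the CCT subunits, 11 tested probe sets stood for 8 genes, with a median log2 fold change of -0.07 and 0 calls. Cct3 gave the lowest values. Its first set had signals of 1204 and 1335 in RA-Dex, 1334 and 1320 in Dex, 1477 and 1628 in RA, and 1928 and 1581 in Dil. All arrays with dexamethasone were below all others, but the log2 fold change of -0.34 ± 0.123 did not pass (adjusted p = 0.13). Its other sets had -0.54 ± 0.179 (adjusted p = 0.0997) and -0.17 ± 0.24 (adjusted p = 0.763). Without RA replicate a, the set at -0.54 passed (-0.76, adjusted p = 0.00683). Cct2 had 453 and 489 in RA-Dex, 436 and 502 in Dex, 135 and 501 in RA, and 487 and 292 in Dil, with a value of 0.58 (-0.21 to 1.38). It was 0.11 without the low RA replicate a, and 1.06 without RA replicate b, where it passed (adjusted p = 0.0307). None of the other subunits separated the arrays with dexamethasone from those without. Cct4 had signals of 2450 and 2555 in RA-Dex, 2899 and 2574 in Dex, 2520 and 2977 in RA, and 3177 and 2112 in Dil, with a log2 fold change of -0.03 (-0.34 to 0.29). Cct7 had 2599 and 3078 in RA-Dex, 3270 and 3143 in Dex, 2765 and 4293 in RA, and 2799 and 3124 in Dil, with -0.08 (-0.40 to 0.23). Cct8 had 651 and 938 in RA-Dex, 811 and 793 in Dex, 643 and 930 in RA, and 1038 and 584 in Dil, with 0.03 (-0.44 to 0.50). In these 3 the intervals lie on both sides of 0, and single arrays rather than groups were high or low. Cct5 had 4264 and 4698 in RA-Dex, 4536 and 4076 in Dex, 3136 and 5538 in RA, and 5241 and 4879 in Dil on its brighter set, with -0.07 (-0.42 to 0.29), and -0.04 (-0.62 to 0.55) on the other. Cct6a had 921 and 851 in RA-Dex, 841 and 845 in Dex, 1258 and 1104 in RA, and 937 and 759 in Dil, with -0.21 (-0.50 to 0.09), the RA arrays being the highest. Cct6b, the form known from the testis, had 170 and 177 in RA-Dex, 268 and 318 in Dex, 240 and 195 in RA, and 184 and 277 in Dil, with 0.03 (-0.58 to 0.64). Tcp1, the subunit whose symbol falls outside the rule, had -0.39 ± 0.171 (adjusted p = 0.22).

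In the DNAJA family, Dnaja1, a main partner of Hspa8, was lowest in Dil. Its signals were 3503 and 3452 in RA-Dex, 3660 and 3038 in Dex, 3645 and 2660 in RA, and 2297 and 1943 in Dil. Both Dil arrays were below the other 6, as on the brightest of the 4 Hspa4 sets but not on the other 3. The log2 fold change with dexamethasone was 0.41 ± 0.132 (adjusted p = 0.091), and it was 0.72 ± 0.186 for RA-Dex over Dil (adjusted p = 0.0618), 0.66 ± 0.186 for Dex over Dil (adjusted p = 0.0961) and 0.56 ± 0.186 for RA over Dil (adjusted p = 0.457). These 3 comparisons share the Dil arrays. Without RA replicate a the average effect passed (0.52, adjusted p = 0.0332). Dnaja2 had -0.08 (95% interval -0.42 to 0.25) and the mitochondrial Dnaja3 -0.04 (-0.29 to 0.22).

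Of the DNAJB genes, Dnajb1 (Hsp40), the textbook partner of inducible HSP70, had signals of 980 and 1063 in RA-Dex, 843 and 856 in Dex, 1003 and 927 in RA, and 857 and 1058 in Dil, with a log2 fold change of -0.04 (95% interval -0.33 to 0.25). Its groups overlapped. Dnajb6, which holds back aggregation, had signals of 2555 and 3055 in RA-Dex, 2843 and 2805 in Dex, 2568 and 2221 in RA, and 2418 and 2057 in Dil on its brighter set. RA-Dex replicate a lay just under RA replicate a, so the groups overlapped. The log2 fold change was 0.28 (0.02 to 0.54; adjusted p = 0.189) on this set and -0.11 (-0.44 to 0.22) on the other. Dnajb2 had 0.10, Dnajb13, which is known from motile cilia and sperm tails, -0.07, and Dnajb4 -0.33, the last with the widest interval (-1.32 to 0.65) and 1 Dex array at the floor.

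Among 17 tested DNAJC probe sets of 13 genes, 0 passed. Dnajc2, which binds the ribosome together with Hspa14, gave the same average on both of its sets, -0.46 ± 0.196 and -0.46 ± 0.199 (adjusted p = 0.205 and 0.206), but not within the arms. RA-Dex over RA was -0.86 on the first and -0.21 on the second, and Dex over Dil was -0.06 and -0.71. On the first its signals were 452 and 492 in RA-Dex, 531 and 614 in Dex, 787 and 928 in RA, and 794 and 444 in Dil. Dil replicate b overlapped the dexamethasone arrays, and without it the value was -0.67 (adjusted p = 0.0498). Dnajc5, the cysteine string protein of secretory vesicles, had -0.45 ± 0.194 (adjusted p = 0.208). Dnajc8, a splicing protein, had signals of 7910 and 7996 in RA-Dex, 9201 and 7998 in Dex, 7858 and 9843 in RA, and 8612 and 8864 in Dil on its brighter set, with overlapping groups, and log2 fold changes of -0.09 on this set and 0.30 on the other. The remaining genes, Dnajc4, Dnajc7, Dnajc9, Dnajc13, Dnajc15, Dnajc17 and Dnajc21, had values of -0.21 to 0.33.

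The muscle small heat shock protein Hspb2 had -0.23 (95% interval -0.49 to 0.04) and -0.47 (-1.12 to 0.18) on its 2 sets. On the first its signals were 2605 and 2513 in RA-Dex, 2318 and 2015 in Dex, 3028 and 2695 in RA, and 2333 and 3008 in Dil. Hspb1 (HSP25), a classic heat shock target, was at the floor on 7 of 8 arrays on its single probe set, with signals of 13.4 to 103. It was one of 7 genes with no tested probe set, beside Hspb11, Hspa1l, Dnajb3, Dnajb5, Dnajb8 and Dnajc11. Counting probe sets, 16 members were not tested, with signals from 4.26 to 443.

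Counted by arrays that do not overlap, 5 of the 60 member probe sets (8.33%) had all 4 dexamethasone arrays above all 4 others, against 6.8% of all probe sets, and 1 (1.67%) had them all below, against 7.78%. The 5 were those of Hspb8, Hsph1, Dnajb9 and 2 of Dnajc3, and the 1 was Cct3.

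**Figure D3:**
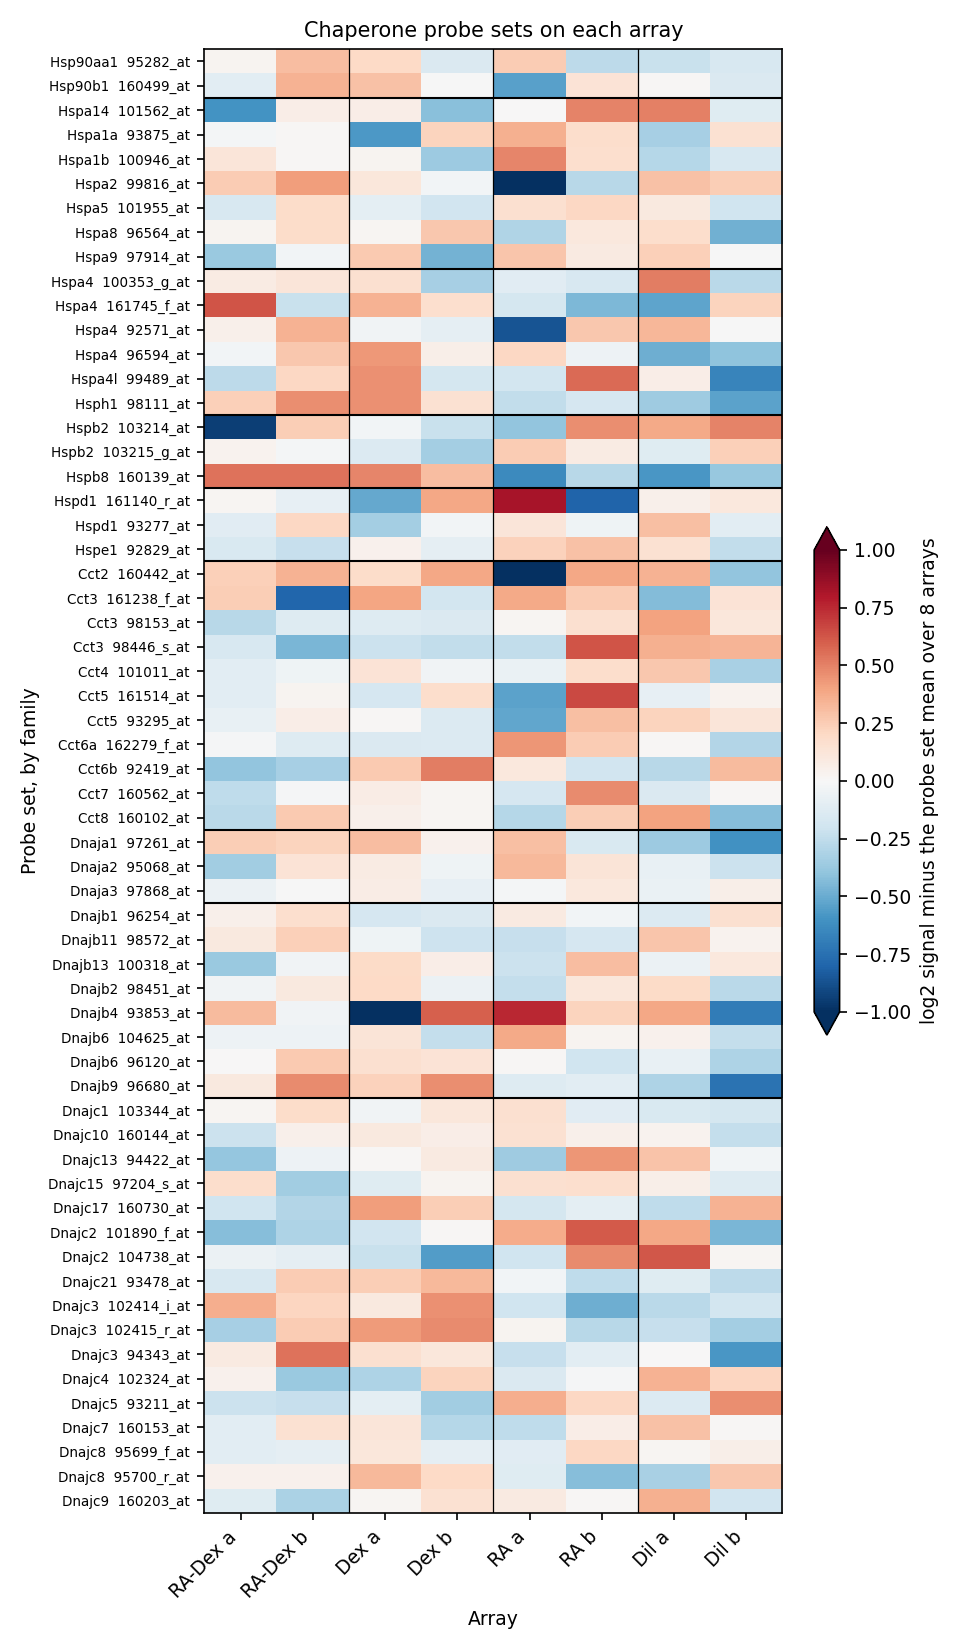
Log2 signal of each tested chaperone probe set on each array, minus the probe set's mean over the 8 arrays (colour, log2 scale, red higher), with families separated by lines and RA-Dex, Dex, RA and Dil from left to right. Hspb8, Hsph1 and Dnajb9 are red in the 4 dexamethasone columns and blue in the others, and most other rows show no such split.

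The comparison of Dex with Dil asks what dexamethasone did after oil, and that of RA-Dex with RA asks the same after retinoic acid. They share no arrays, but the spread used in both came from 1 fit over all 8 arrays, so their tests are not independent. In Dex over Dil, 1 of 60 members passed, beside 3.23% of all probe sets (2% upward), and in RA-Dex over RA, 1 passed, beside 3.5% (2.28% upward). In both it was Hspb8, which rose 1.83-fold (log2 fold change 0.87 ± 0.186, 2 arrays against 2, adjusted p = 0.03) after oil and 2-fold (1 ± 0.186, 2 arrays against 2, adjusted p = 0.0149) after retinoic acid. Its call in the first was lost without any of 6 arrays (RA-Dex, Dex and Dil, a or b; adjusted p 0.0628 to 0.223), with dim probe sets kept (0.112) and without an intensity trend (0.0858), and in the second without the RA-Dex array a (0.107), the RA-Dex array b (0.118) or the RA array a (0.0762), if dim probe sets were kept (0.0779) and without an intensity trend (0.0523). The value itself stayed between 0.77 and 1.18 in these fits. Without the Dil arrays, RA-Dex over RA still called Hspb8 (adjusted p = 0.0177), in a fit added after the data were seen.

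Hsph1 had 0.75 ± 0.189 after oil (adjusted p = 0.0632) and 0.56 ± 0.189 after retinoic acid (adjusted p = 0.166). Dnajb9 had 0.87 ± 0.233 (adjusted p = 0.0768) and 0.40 ± 0.233 (adjusted p = 0.454). Neither passed within an arm, although the groups did not overlap in either. The difference between the arms was tested as an interaction, and 0 of 60 members passed, beside 0.0137% of all probe sets, with 3 members at an unadjusted p under 0.05 against 409 (5.6%) of all probe sets. The interaction was 0.12 for Hspb8, -0.19 for Hsph1 and -0.47 for Dnajb9, where a positive value is a larger effect of dexamethasone after retinoic acid. For the brightest set of Hspa4 it was -0.65 ± 0.268 (adjusted p = 0.859), whereas the other 3 sets of Hspa4 had 0.73, 0.45 and 0.11. It was for Dnajb11 0.65 ± 0.293 (adjusted p = 0.886).

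**Figure D4:**
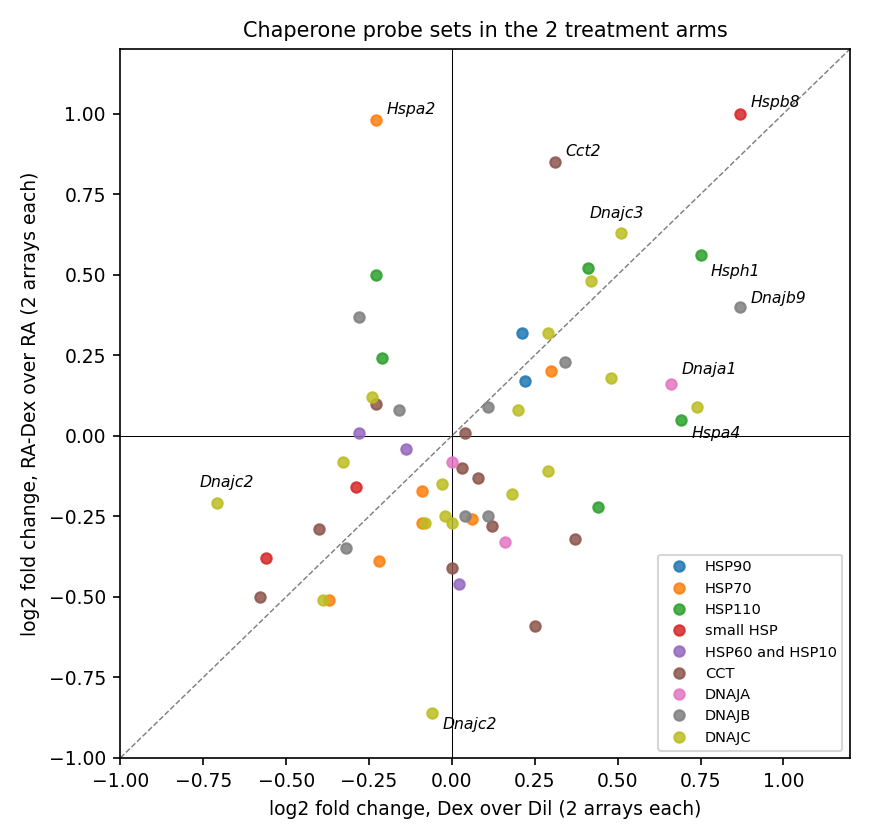
Log2 fold change of the 60 tested chaperone probe sets after oil (x axis, Dex over Dil) and after retinoic acid (y axis, RA-Dex over RA), coloured by family, with 2 arrays a group and the dashed line marking equal values. Hspb8 lies near the line at 0.87 and 1, and Hspa2 is far above it. A Cct3 set (0.25 and -0.59) and a Dnajc2 set (-0.06 and -0.86) lie furthest below it. Dnaja1 and the brightest of 4 Hspa4 sets also lie below it, and the other Hspa4 sets lie above it.

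Retinoic acid changed no member past the threshold. Averaged over the day 4 treatment, 0 of 60 members passed in limma, beside 0.15% of all probe sets. There 1 member, Dnaja1 (0.31 ± 0.132, adjusted p = 0.767), had an unadjusted p under 0.05, against 460 (6.29%) of all probe sets. In RA over Dil 0 passed, beside 0.0274%, with 4 at an unadjusted p under 0.05 against 584 (7.99%) of all probe sets. In RA-Dex over Dex 0 passed, beside 0.0958%, with 0 at that p against 302 (4.13%). The members ranged from -0.41 (Cct6b) to 0.63 (Dnajb4) in the average, with a median of 0.01 against 0 for all probe sets. For the members that rose with dexamethasone, the retinoic acid average was 0.08 (95% interval -0.21 to 0.37) for Hspb8, 0.14 (-0.15 to 0.44) for Hsph1 and 0.17 (-0.19 to 0.53) for Dnajb9.

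With both treatments against neither, RA-Dex over Dil called 2 of 60 members, beside 4.01% of all probe sets (2.57% upward). Hspb8 rose 2.03-fold (log2 fold change 1.02 ± 0.186, 2 arrays against 2, adjusted p = 0.0118) and Hsph1 1.74-fold (0.80 ± 0.189, 2 arrays against 2, adjusted p = 0.0415). The call of Hsph1 was lost in 6 of the 8 fits that left out 1 array, with adjusted p from 0.065 (without Dex replicate a) and 0.0651 (Dex b) over 0.0839 (Dil a), 0.117 (RA-Dex a) and 0.226 (Dil b) to 0.299 (RA-Dex b), and that of Hspb8 was lost without RA-Dex replicate a (0.0878), RA-Dex replicate b (0.106) or Dil replicate a (0.0727). With no filter neither passed (0.0727 for Hspb8 and 0.115 for Hsph1), and without an intensity trend Hsph1 did not (0.0918).

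The start regions of the members were searched for known elements on both strands, in windows of 250 bases before to 50 after the start from RefSeq (GRCm38.p6). Windows were found for 46 of the 54 genes, 60 in all. The triple heat shock element, GAA, TTC and GAA with 2 bases between each (on the other strand TTC, GAA and TTC), was in 10% of the members' windows and in 0.603% of all 32851 windows, and it overlaps the pairs by its letters. It was found in 6 windows, of Hsph1, Hspd1, Hspe1 and Dnajb6, which hold 3 distinct sites: Hsph1 and Dnajb6 each have overlapping windows, and Hspd1 and Hspe1 share theirs on opposite strands. The pair GAANNTTC was in 20% against 7.86%, among them Hspb8, at 3 to 10 bases past its start, and Hspa1a, Hspa1b, Hspb1 and Dnaja1. The pair TTCNNGAA was in 16.7% against 8.52%. The endoplasmic reticulum stress element was in 5% against 0.119%, in Dnajc3, Hspa5 and Hsp90b1, and a glucocorticoid response element in the letters GNACA and TGTNC with 3 bases between was in 0% against 0.475%. Of the 4 genes with the triple element, only Hsph1 passed with dexamethasone. Dnajb6 had 0.28 on its brighter set and -0.11 on the other. Hspd1 and Hspe1, which share a site, had values below 0 with intervals that cross 0. These windows are short, and a match or its lack says nothing of binding.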

How the data were processed

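Lung RNA was hybridized to 8 arrays, 2 for each of 4 groups named in the sample titles. The deposited values are scaled intensity signals, 1 per probe set. The authors had scaled each array to a common level, as the values show (mean after trimming 2% at each end, 800.4 on all arrays). No source used here names the scaling software. Controls (66 of 12488 probe sets) were dropped. Signals under the pooled 25th percentile (85.3) were set to it, log2 was taken, and probe sets with a mean above the pooled 40th percentile (200.8) were tested, without regard to group. Symbols came from the platform annotation of 2016. All 76 member probe sets matched current symbols by Entrez ID (GRCm38.p6).

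One mean per group was fitted with limma 3.58.1 in R 4.3.3 (eBayes with an intensity trend, two-sided, 4 residual and 6.69 prior degrees of freedom) over all 7309 probe sets, with Benjamini-Hochberg adjustment in each of 8 contrasts, and the fit was tested on simulated data. The text names all called members, the brightest member and textbook representatives of each family, each Cct subunit, Hsf2, Fkbp5 and called genes of the co-chaperone and heat shock factor lists. Herpud1, Bag3, Ddit3, Xbp1, Tcp1 and the remaining members were named after their values were seen. Gene lists use 1 probe set a gene, that of highest mean signal. Members and lists were chosen with earlier results of these data known. Alternatives changed the normalization (quantile, cyclic loess), the filter (none, stricter), the floor (a pseudocount), the variance model (no trend, robust), the array letter (as a block) and the minimum fold (0.5 on the log2 scale), or left out each array. No detection calls were used, and 2 arrays a group limit the precision.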

Additional observations from a re-analysis of the deposited data

Results flagged for a closer look

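A second probe set of Hspb8, too dim for the tests, was above the floor of 85.3 on both RA-Dex arrays (89.5 and 124) and under it on both Dil arrays (32.9 and 24.3). It was also under the floor on both Dex arrays (37.4 and 32) and both RA arrays (35.1 and 13.4). It was picked out because the signal lies in data the comparisons did not use and is above that of the Dil arrays, and the difference was not tested.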

How the results depend on the processing

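Of the 10 called values named, 3 (Hspb8, Fkbp5 and Herpud1 for the average effect of dexamethasone) kept their call under all alternatives run for them, and 0 reversed. Of 30 named values of members that were not called, 6 passed under at least 1 alternative and 9 changed sign, all of them while not called. The count of 3 members called with dexamethasone was 1 with no filter and 1 to 4 when 1 array was left out (1 without RA-Dex replicate b or Dex replicate a). The 1 member of Dex over Dil was 0 with no filter, 0 with no intensity trend, 2 with the stricter filter, and 0 to 1 without 1 array. The 1 of RA-Dex over RA was 0 with no filter, 0 with no intensity trend, and 0 to 2 without 1 array. The 2 of RA-Dex over Dil were 0 with no filter, 1 with no intensity trend, and 0 to 3 without 1 array. The cause of these shifts was not tested. With 1 array left out there were fewer arrays, and with no filter the adjustment ran over more probe sets. The retinoic acid comparisons and the interaction stayed at 0 members under all alternatives.

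The labels do not say whether the letters a and b pair the samples. The correlation between groups of the deviations of same-lettered arrays from their group means lay between -0.22 and 0.14. With 1 such deviation per group, this cannot show whether same-lettered arrays share a litter or day. With the replicate block, the members called were 0 in Dex over Dil and 1 in RA-Dex over Dil, and the count over all probe sets for the average of dexamethasone was 454 in place of 572. With the block, Dnajb9 (adjusted p = 0.0672) and Stub1 (0.0643) were not called with dexamethasone, nor Hspb8 in Dex over Dil (0.0566) nor Hsph1 in RA-Dex over Dil (0.0778). Over all probe sets, the calls for dexamethasone were 572, with 349 when dim probe sets were kept and 309 to 537 without 1 array. Those of Dex over Dil were 236 (96 and 80 to 273), of RA-Dex over RA 256 (143 and 81 to 250) and of RA-Dex over Dil 293 (147 and 93 to 334), and without an intensity trend the last 3 were 112, 126 and 165. Quantile and cyclic loess normalization shifted the median of all probe sets by 0.02 and 0.038. A group left with 1 array was assumed to vary like the others. Signals near the floor, such as those of Hspb1 and Hsf2, give only an upper bound.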
